A study of Drosophila melanogaster with 4 samples.

Results

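Wide binding regions of the TATA-binding protein (TBP) were examined in Drosophila melanogaster embryos. They were the peaks of at least 2000 bp on chromosome arms 2L, 2R, 3L, 3R, 4 and X, leaving out the tandem histone gene array on 2L. Members were chosen by their width alone. By this rule 623 of the 7303 arm peaks were members (8.53%), out of 7769 peaks in the whole list. The rule read peak width, a measured value, so widths, and the scores that go with them in the same list, are given as descriptions with no test. The remaining 6680 arm peaks are called other peaks, and 32 of them lay in the histone array, where 23 reached 2000 bp.

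The list came from chromatin immunoprecipitation and sequencing, with 2 TBP libraries set against 2 input libraries of total chromatin DNA. All 4 libraries carry the same labels apart from the antibody: strain Exd-GFP-13T, genotype w; PBac{y[+]-attP-3B}VK00033, unknown sex, and embryos of 0 to 8 h. The transgene of that strain is a genomic copy of exd (extradenticle) carrying GFP at its stop codon. The extraction text describes a later collection from a different strain, and the labels do not settle which is right. The antibody was a rabbit polyclonal against TBP itself. One list was analysed for the whole series, so no peak has a value per library, no spread between replicates could be measured, and read depth is unknown. Whole embryos were used, and TBP bound in few cells cannot be told apart from weaker binding in many.

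TBP bends DNA at the TATA box and, as a subunit of TFIID, helps to place RNA polymerase II at the start of genes. It also works in factors of RNA polymerases I and III. A site bound at a single promoter usually gives a narrow peak. A peak much longer than the sheared fragments can cover several start sites or a stretch of neighbouring bound sequence, and the list alone cannot separate these.

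Wide peaks made up 24.6% of the sequence covered by arm peaks, 1.72 of 7.01 Mb. Their median width was 2513 bp, with quartiles at 2244 and 3006 bp and a highest value of 7812 bp, against a median of 662 bp in other peaks. Most stood close to the width minimum: 305 of the 623 measured 2000 to 2499 bp and 162 measured 2500 to 2999 bp. A further 108 measured 3000 to 3999 bp, 30 measured 4000 to 4999 bp, and 18 measured 5000 bp or more. No break in the widths fell at the minimum. There were 88 peaks of 1900 to 1999 bp and 75 of 2000 to 2099 bp outside the array, with median scores of 74.67 and 79.61. The narrowest members were 2001, 2002, 2004, 2006 and 2010 bp wide and scored 38.86, 79.61, 163.01, 58.42 and 44.82. The widest peaks left out were 1999, 1998, 1997, 1996 and 1996 bp wide and scored 76.11, 47.24, 22.62, 84.92 and 81.96. Scores of these narrowest members (38.86 to 163.01) and of these widest peaks left out (22.62 to 84.92) overlapped. The minimum thus cuts through a continuous range of widths.

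The widest peak lay on 2L at 8210281 to 8218092 and scored 80.23, near the middle of the wide peaks. Scores carry no stated scale in this list. Over wide peaks they ranged from 17.68 to 400.63, with a median of 83.75 and quartiles at 61.41 and 112.51. Other peaks had a median score of 25.65, with quartiles at 14.14 and 48.71. Scores above 100 belonged to 212 wide peaks (34.0%) and to 321 other peaks (4.81%), and to 7.30% of all arm peaks. The score groups overlapped in part: 516 other peaks (7.72%) scored above the median of the wide ones. Their quartile ranges did not overlap. Width and score rose together among other peaks (Spearman's rho = 0.82, across 6680 peaks of 1 list) and much less among the wide ones (rho = 0.23, across 623 peaks). Both correlations run across peaks that share the same libraries and are descriptions. The rule cut the range of widths at 2000 bp, and a cut range can by itself lower such a correlation. The values therefore do not show a weaker link as a trait of wide peaks. Outside the array, median scores of peaks from 1500 to 1999 bp, in steps of 100 bp, were 65.1, 70.7, 64.3, 73.5 and 74.7.

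**Figure D1:**
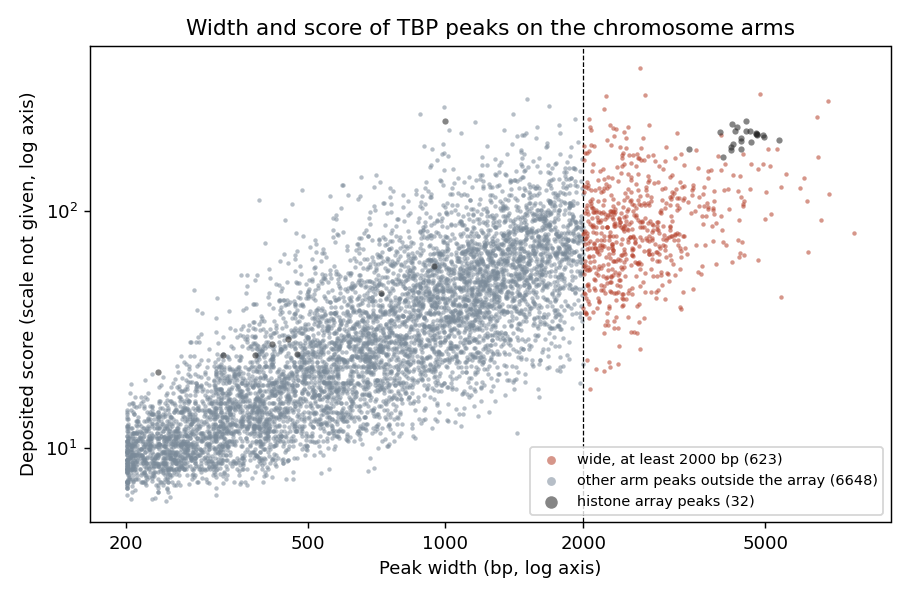
Width in bp (x axis, log scale) and deposited score (y axis, log scale, no unit given) of each arm peak; the dashed line is the minimum of 2000 bp. The 623 wide peaks spread from 17.68 to 400.63 in score with no gap at the line, and the black points are the 32 peaks of the histone array.

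Within the cut range of widths of the wide peaks, score and width went together only loosely. The median score was 75.19 for peaks of 2000 to 2499 bp, 83.45 for 2500 to 2999 bp, 98.51 for 3000 to 3999 bp, 105.80 for 4000 to 4999 bp and 125.01 for 5000 bp or more. Within the last group a 3L peak of 5409 bp at 16572553 to 16577961 scored 43.32. The 2L peak of 6844 bp at 2749202 to 2756045 scored 290.39. At the weak end, 9 wide peaks scored below 30, the lowest being a 2L peak of 2065 bp at 10265321 to 10267385 (17.68) and a 3R peak of 2216 bp at 19104543 to 19106758 (21.16). A 2130 bp peak on chromosome 4 (590909 to 593038, 21.52), a 2287 bp peak on 3L (9415271 to 9417557, 21.88) and a 2381 bp peak on 2L (1980264 to 1982644, 22.61) completed the lowest 5. Of the 20 highest scores on the arms, 9 belonged to wide peaks and 3 to the histone array.

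Taken over all scores, wide peaks had close neighbours about as often as other arm peaks. Another peak lay within 1 kb of the edge in 284 of 623 wide peaks (45.6%, 95% exact binomial interval 41.6 to 49.6%) and in 2787 of 6680 other peaks (41.7%, 40.5 to 42.9%), against 42.1% of all arm peaks. These shares are close, and the intervals treat peaks as independent, which clustered peaks are not. The median gap to the nearest peak was 1400 bp for wide peaks and 1687 bp for other peaks. Measured between peak centres the order turned, with 3398 bp for wide peaks and 2655 bp for other peaks, because a wide peak's own length is then counted. With a width minimum of 1500 bp the order also turned, to 1681 bp for wide and 1669 bp for other peaks, and 41.6% of wide and 42.1% of other peaks had a neighbour within 1 kb. Peaks with a neighbour within 1 kb on both sides made up 8.35% of wide peaks and 8.16% of other peaks, which is the background of 8.17%. At the other extreme, 22 wide peaks (3.53%) and 378 other peaks (5.66%) had no peak within 20 kb on either side, where the background was 5.48%.

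At scores of 60 to 120 a larger share of wide peaks than of other peaks of like score had close neighbours. The intervals stood apart there, but they treat clustered peaks as independent, so this is a description and no test. Outside the histone array, among peaks scoring 60 to 90, another peak lay within 1 kb of 97 of 210 wide peaks (46.2%, exact interval 39.3 to 53.2%) and of 30.8% of 733 other peaks (27.5 to 34.3%). Among those scoring 90 to 120 the shares were 48.1% of 133 wide peaks (39.4 to 56.9%) and 27.2% of 254 other peaks (21.8 to 33.1%). At 120 to 180 they were 47.1% of 102 wide and 33.3% of 129 other peaks, and the intervals overlapped. At 30 to 60 they were 39.4% of 137 wide and 31.4% of 1744 other peaks, with intervals that overlapped too. At 180 and over they were 56.2% of 32 wide and 55.2% of 29 other peaks. With the histone array kept in, the top band held 52 other peaks, of which 39 had a neighbour within 1 kb. Below a score of 30 the order was the other way, with 3 of 9 wide peaks (33.3%, 7.49 to 70.1%) and 49.3% of 3759 other peaks having a peak within 1 kb.

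**Figure D2:**
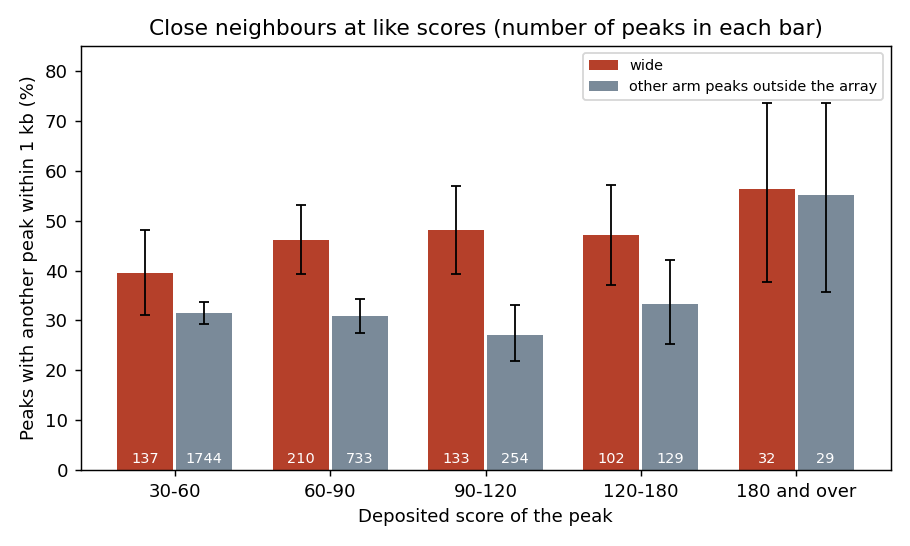
Share of peaks with another peak within 1 kb of their edge (y axis, percent), by deposited score (x axis), for wide peaks and other arm peaks outside the array; bars carry exact 95% binomial intervals and white numbers count peaks. Wide and other peaks stand at 46.2% and 30.8% at 60 to 90, at 48.1% and 27.2% at 90 to 120, and at 56.2% and 55.2% at 180 and over.

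The peaks beside wide ones were mostly small and weak, as were those beside other peaks. The nearest peak to a wide peak had a median width of 671 bp and a median score of 23.56, and for other peaks it had a median width of 703 bp and a median score of 26.83. It scored lower than the wide peak in 536 of 623 cases (86.0%), and lower than the other peak in 48.7% of cases. At like scores these shares were near each other, at 87.6% of wide and 83.6% of other peaks scoring 60 to 90, and at 94.7% and 93.7% of those scoring 90 to 120. Where the gap was under 1 kb, the neighbour was narrower than 500 bp beside 51.1% of 284 wide peaks and 42.1% of 2787 other peaks. This order did not hold at like scores: outside the array the shares were 44.4% for wide and 52.6% for other peaks at 30 to 60, 52.6% and 53.5% at 60 to 90, and 48.4% and 58.0% at 90 to 120. The nearest peak was itself wide for 68 wide peaks (10.9%, exact interval 8.58 to 13.6%) and for 559 other peaks (8.37%, 7.72 to 9.06%), against a background of 8.59%. Of wide peaks scoring 30 to 60 it was 18.2%, and of other peaks of that score outside the array 6.94%, while at 60 to 90 the shares were 8.10% and 7.50%.

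Peak cover beside wide peaks of any score was higher than beside other peaks of score 60 or more at all 77 distances computed from 1 to 20 kb. Scores were not matched here, since 137 wide peaks scored 30 to 60 and 9 scored below 30. The distances read the same flanks and are not separate results. Against all other peaks outside the array it was higher at 74 of these 77 distances and lower at 3, and closer in, at 525 bp, it was 15.2% for wide and 15.7% for all other peaks. At 2 kb from the edge, another peak covered 15.2% of the flanks of wide peaks, against 9.61% for other peaks scoring 60 or more and 14.1% for all other peaks outside the array. At 5 kb the shares were 15.0% for wide peaks, 11.3% for other peaks scoring 60 or more and 11.2% for all others. At 20 kb they were 11.2%, 8.01% and 8.43%, in the same order. Over all scores the number of peaks nearby was similar, with a mean of 2.43 other peaks with centres within 10 kb of a wide peak and 2.45 for other peaks. Within 50 kb the means were 9.85 for wide peaks and 9.09 for other peaks. At like scores outside the array, the 10 kb means for wide and other peaks were 2.38 and 2.04 at 60 to 90. They were 2.55 and 2.10 at 90 to 120, and 2.56 and 2.27 at 120 to 180. At 30 to 60 they were level, 2.20 and 2.21. Below 30 they were 1.78 and 2.66.

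**Figure D3:**
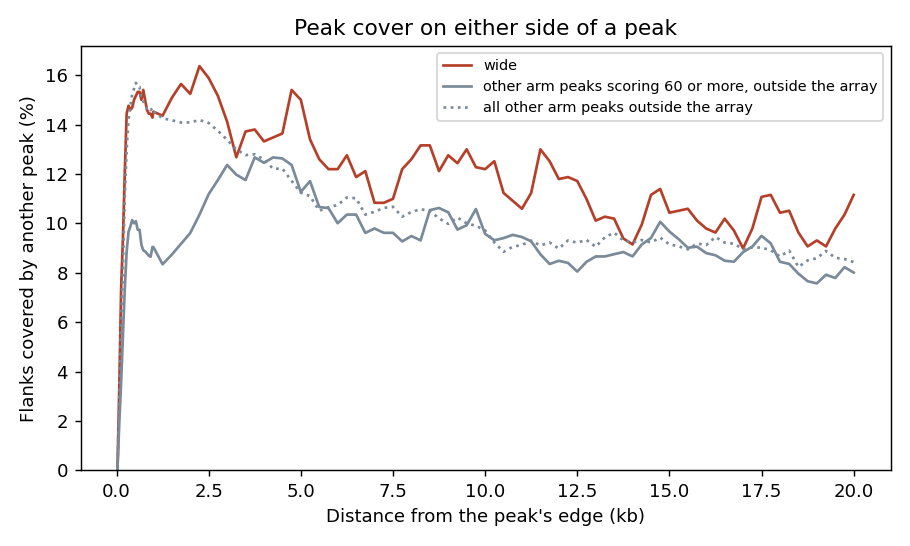
Share of flanks covered by another peak (y axis, percent) at each distance from a peak's edge (x axis, kb), counting both sides. At 2 kb the wide line (peaks of any score) stands at 15.2% and the line of other peaks scoring 60 or more at 9.61%. No peak starts closer than 50 bp, so all lines start at 0.

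Joining peaks less than 1 kb apart showed how far these groups of peaks run. Outside the array, 595 joined regions held a wide peak and 4871 held none. Of the regions with a wide peak, 109 (18.3%) were made of 3 or more peaks, against 258 (5.30%) of the regions without one. This difference is partly set by the rule, since a region of more peaks has more chances to hold a wide one. In 25 joined regions there were 2 or more wide peaks. The longest joined region, on 2L from 5222523 to 5240717, measured 18195 bp and held 8 peaks, 4 of them wide. The third longest, on 3R from 4872317 to 4883895, measured 11579 bp and consisted of 3 wide peaks (2462, 6155 and 2197 bp, scores 52.85, 110.01 and 71.53) and a 301 bp peak between them. The 2R region 9470053 to 9481598 measured 11546 bp around a single wide peak of 6483 bp that scored 249.21, with 5 narrower peaks at its sides. Of the 18 peaks of 5000 bp or more, 12 had another peak within 1 kb (66.7%). This compares with 45.6% of all wide peaks and 42.1% of all arm peaks. In the width bands from 2000 to 4999 bp the shares were 43.3 to 48.1%, with no steady rise, and 18 peaks are few.

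Most wide peaks were separated from the next by other peaks. Between consecutive wide peaks on an arm the median gap was 97162 bp, with quartiles at 23813 and 241180 bp, and a median of 7 other peaks stood between them. In 66 of 617 such pairs (10.7%) no other peak lay between the wide ones, near the 8.53% of all arm peaks that were wide. The shares are close, so this does not set the arrangement of wide peaks apart. In 18 of these 66 pairs the gap was also under 1 kb. Runs of adjacent wide peaks were short: 49 runs of 2, 7 runs of 3 and 1 run of 4. The run of 4 lay on 3R at 1484702 to 1531886, with widths of 2047, 4498, 2202 and 2141 bp, scores of 73.11, 109.77, 84.94 and 94.02, and gaps of 7716 to 17779 bp. On X a run of 3 at 11017496 to 11043852 had like widths (2053, 2361 and 2360 bp), like scores (41.51, 41.98 and 44.82) and gaps of 10244 and 9339 bp. On 3L a run of 3 at 5743371 to 5764972 scored 154.94, 178.57 and 148.47. Start-to-start steps up to 20 kb were spread over all bins of 2 kb, with 25 steps of 2 to 4 kb, 16 of 4 to 6 kb, 15 of 6 to 8 kb, 8 of 8 to 10 kb, and 8 to 18 in each later bin.

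The 10 widest peaks differed in their surroundings. Of them, 7 had another peak within 1 kb, as had 45.6% of all wide peaks and 42.1% of all arm peaks. On 2L the nearest peak was 117 bp from the widest one, 2050 bp from the 6882 bp peak at 5976877 to 5983758 and 336 bp from the 6844 bp peak at 2749202 to 2756045. On 3L the 6507 bp peak at 18983506 to 18990012 and the 6071 bp peak at 14747980 to 14754050 each faced a long empty stretch on the low side, of 84521 and 80456 bp, with a peak 3084 and 348 bp away on the high side. On 3R the gaps were 90 bp for the 6193 bp peak at 2914475, 104 bp for the 6155 bp peak at 4875440 and 5330 bp for the 5950 bp peak at 25682545. The widest peaks of X and of chromosome 4 were shorter, 4815 bp at X 7229864 to 7234678 (score 62.15) and 2616 bp on chromosome 4 (score 60.30).

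The strongest wide peaks were mostly of moderate width, with some of the longest among them. The 10 highest scores included the 2L peak of 6844 bp (290.39) and the 2R peak of 6483 bp (249.21). Peaks of 5000 bp or more were 2.89% of all wide peaks. Among the 10 highest scores were a 3R peak of 2222 bp at 303765 to 305986 (score 268.79), a 3R peak of 2062 bp at 20381127 to 20383188 (242.53), a 3L peak of 2787 bp at 697554 to 700340 (230.14) and a 3R peak of 2288 bp at 10919448 to 10921735 (228.50). The nearest other peak lay 4729, 24292, 128 and 35547 bp away. The second highest score, 310.61, belonged to a 2L peak of 4855 bp at 7540454 to 7545308, with a gap of 4510 bp. The 5 peaks with gaps given here thus included crowded and solitary ones.

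Some wide peaks stood alone. The most isolated was a 3736 bp peak on 3R at 1832328 to 1836063, with a score of 107.75 and 144019 bp to the nearest peak. Next were a 2837 bp peak on 2R at 14858100 to 14860936 (score 83.15, gap 116753 bp) and a 3473 bp peak on X at 5313323 to 5316795 (score 123.99, gap 89278 bp). A 2072 bp peak on 3R at 16773767 to 16775838 (score 56.85) stood 67538 bp from the nearest peak. The fifth, a 2722 bp peak on 3R at 3298412 to 3301133, had the third highest score of all wide peaks (308.07) and no other peak within 54808 bp. High score and width thus occurred both in crowded stretches and far from any other peak.

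The share of peaks that were wide differed little between arms, with X lowest and 3R highest. On 3R 180 of 1757 peaks were wide (10.2%, exact 95% interval 8.87 to 11.8%), and on X 82 of 1179 (6.96%, 5.57 to 8.56%). Between them were 2R with 134 of 1474 (9.09%), 2L with 109 of 1349 (8.08%), 3L with 110 of 1436 (7.66%) and chromosome 4 with 8 of 108 (7.41%, 3.25 to 14.1%). Only the intervals of 3R and X, of these 6, stood fully apart from each other, and they take no account of clustering. Wide peaks on X also had a lower median score, 69.84, against 79.90 to 91.32 on 2L, 2R, 3L and 3R, whereas other peaks had medians of 25.26 on X and 25.26 to 26.78 on those 4 arms. On chromosome 4 the medians were lower still, 61.2 for its 8 wide peaks and 21.88 for its other peaks. Close neighbours were less common on X, where 26 of 82 wide peaks (31.7%) had a peak within 1 kb, against 46.1 to 49.1% on 2L, 2R, 3L and 3R. The median gap beside wide peaks was 2264 bp on X, longer than the 1669 bp of other X peaks. On the other 5 arms it was shorter for wide than for other peaks. Sex is labelled unknown, and the part of X copy number in these values was not tested.

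**Figure D4:**
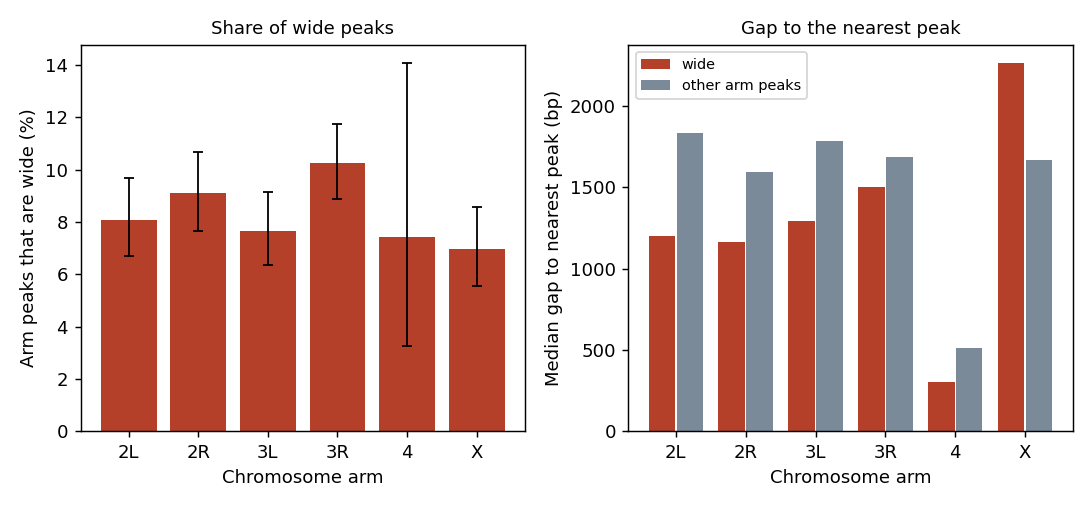
Left, share of arm peaks that were wide (y axis, percent) with exact 95% binomial intervals, by arm; right, median gap to the nearest peak (y axis, bp) for wide and other peaks. The share was 6.96% on X and 10.2% on 3R, and X is the only one of the 6 arms where the gap beside wide peaks is the longer one.

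All 8 wide peaks of chromosome 4, a small and largely heterochromatic chromosome, were between 2130 and 2616 bp wide and scored 21.52 to 99.73. They included 2 close pairs. One pair lay at 679746 to 682254 and 682758 to 685195 (scores 73.81 and 42.44), with a small peak between them. The other lay at 1047420 to 1050035 and 1050494 to 1052840 (scores 60.30 and 98.47), 458 bp apart. None reached 3000 bp, a width that 156 of all 623 wide peaks reached or passed. With only 8 members, this does not set chromosome 4 apart. Outside the 6 arms, in heterochromatic and unplaced sequence, none of the 466 listed peaks was 2000 bp wide.

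Along the arms, wide peaks were spread over nearly all of the sequence. Of 117 full 1 Mb windows, 9 held no wide peak, the median was 5 and the quartiles were 3 and 7. The highest count was 12, reached on 3R at 12000128 to 13000127 (103 peaks in all) and on 2L at 10017887 to 11017886 (95 peaks in all). A further 6 windows held 11 each, of which 2R 5018279 to 6018278 had the most peaks in all (90). Windows with more other peaks held more wide ones (Spearman's rho = 0.58 over 117 windows, which share the same libraries). With each arm cut into 4 equal stretches, the wide share on 2L was 9.90% in the second stretch and 5.16% in the third, whereas on 3R it stayed between 9.41 and 11.2% in all 4.

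Named loci were examined as windows around 32 genes or gene complexes of development and stress. The windows rest on general knowledge of the release 5 map and not on an annotation of that build, so they hold flanking genes too, and no peak is assigned to a gene. Together they held 275 peaks, of which 21 were wide (7.64%), against 602 of the 7028 peaks elsewhere on the arms (8.57%) and a background of 8.53%. The named loci as a group, heat shock windows included, were thus not richer in wide peaks than the rest of the arms. Of the 32 windows, 10 held a wide peak and 22 did not. Windows held from 1 to 38 peaks, and at the background of 8.53% a window of few peaks often holds no wide one. The split is therefore not read as a difference among loci. The windows of tkv and of the Enhancer of split complex together held 11 of the 21, or 31.4% of their 35 peaks, and the other 30 windows held 10 (4.17% of 240 peaks). Both windows had the highest wide shares of the 32 (33.3% and 30.4%) and were grouped on these same data. The contrast with the other 30 follows from that pick and is no evidence about these loci. The 4 wide peaks of the tkv window also lay in a single joined region.

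The tkv window on 2L held 4 wide peaks among 12. The gene tkv (thickveins) encodes a type I receptor for BMP ligands. From 5222523 to 5234239, 3 wide peaks of 2559, 6611 and 2443 bp stood 53 and 51 bp apart, almost the smallest gap in the list, and scored 68.17, 91.62 and 40.11. The fourth, at 5236137 to 5238378, was 2242 bp wide and scored 304.51, the fourth highest score of all wide peaks. High and moderate scores thus lay side by side here, and the widest of the 4 did not have the highest score. The window of dpp, which encodes a BMP ligand of this receptor, held 5 peaks, none wider than 1057 bp and none scoring above 67.06.

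The Enhancer of split window on 3R held 7 wide peaks among 23. This complex carries genes of bHLH repressors and other targets of Notch signalling, next to the co-repressor gene gro. The wide peaks measured 2422, 2320, 2678, 2257, 2029, 2278 and 3207 bp from low to high coordinate. Their scores were 97.84, 222.80, 183.33, 84.94, 102.91, 75.19 and 211.52. Each was within 1453 bp of another peak. The window of Notch itself, the receptor gene on X, held 7 peaks, the widest at 1611 bp and the strongest at 116.60.

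The strongest of all wide peaks lay in the window of emc (extra macrochaetae), an HLH gene whose product holds proneural bHLH factors inactive. It spanned 747913 to 750579 on 3L, was 2667 bp wide and scored 400.63. The peaks on its sides, 55 and 98 bp away, were 226 and 403 bp wide and scored 10.15 and 10.69. The achaete-scute complex on X, which holds proneural genes, had 4 peaks, none wider than 741 bp.

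The Hox complexes had many peaks in long windows and no wide one. The Antennapedia complex window held 38 peaks and the Bithorax complex window 27, with 0 wide among the 65, widest at 1977 and 1111 bp and strongest at 98.47 and 88.57. This was 94.2 peaks per Mb, against 100 per Mb over all named windows. These clusters hold the homeotic genes that set segment identity. The Bithorax window lies within the 3R megabase that held 12 wide peaks, so the surrounding sequence was not poor in them. Among pair-rule genes, which divide the embryo into segments, the eve window held a wide peak at 5858201 to 5860569 on 2R (2369 bp, score 152.34), and the prd window held 1 of 2457 bp (score 93.57). The windows of odd and of slp1 and slp2 had none, although their strongest peaks scored 180.28 and 211.52 at no more than 1464 and 1498 bp.

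Wide peaks also lay in the windows of the GATA factor genes srp, GATAe and pnr (4250 bp, score 141.31, and 2729 bp, score 54.76) and of lola, a gene of BTB zinc finger proteins (2739 and 2763 bp, scores 125.35 and 139.90). The hh window, around the gene of the Hedgehog ligand, had a peak of 2059 bp that scored 35.17. The NK homeobox cluster had a peak of 2021 bp (score 75.80), and the small heat shock cluster a peak of 2458 bp (score 57.89). Of the 21 wide peaks in windows, 7 lay within 10 kb of a window's end or across it. The Hsp70 windows, around heat-inducible chaperone genes that are a textbook case of paused polymerase, held 20 peaks with none at 2000 bp. The widest was 1985 bp and the strongest scored 226.05. No wide peak was found in the windows of dpp, the Wnt cluster with wg, hb, tll, cad, esg, sna, the cell death genes hid, grim and rpr, Eip74EF, Eip75B, nub and pdm2, salm and salr, en and inv, or Kr. These windows held 1 to 11 peaks each, where 8.53% of all arm peaks were wide. In them, too, a high score went without great width: the strongest esg peak scored 230.14 at 1773 bp.

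**Figure D5:**
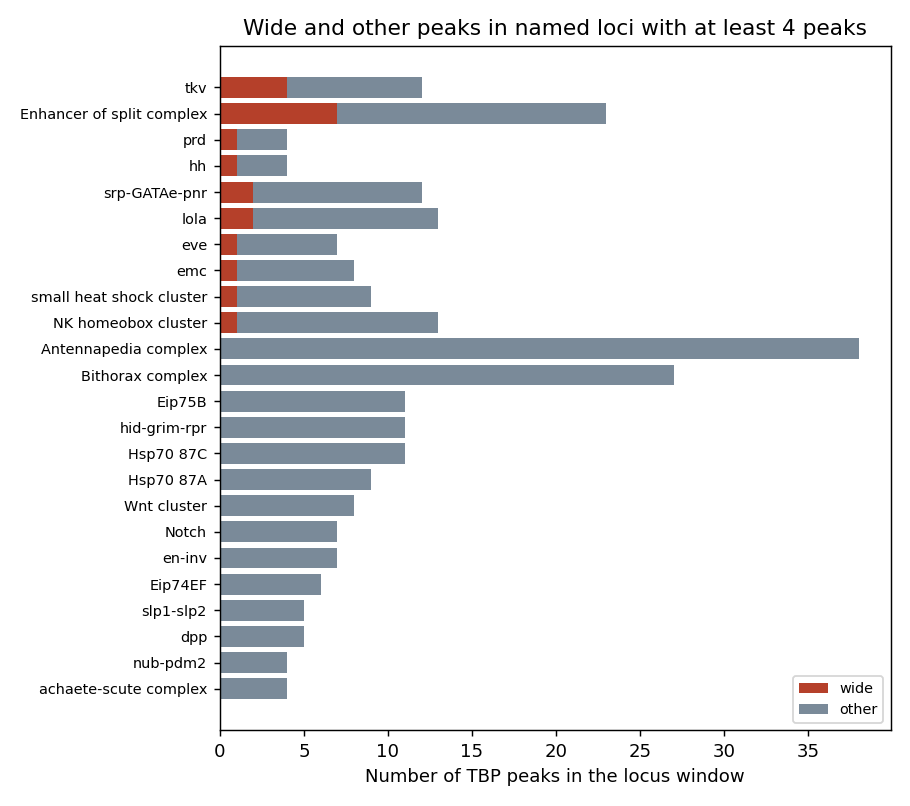
Number of TBP peaks in each named locus window with at least 4 peaks (x axis), split into wide and other peaks and ordered by the share that is wide. The tkv (4 of 12) and Enhancer of split (7 of 23) windows stand at the top, and the Antennapedia (38 peaks) and Bithorax (27 peaks) complexes have none.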

How the data were processed

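The series holds 2 TBP immunoprecipitation and 2 input libraries, grouped by title. One peak list was analysed, on FlyBase release 5 and from MACS per the file headers. The tools listed in the submitters' processing notes are BWA, MACS2 and CASAVA (1.7.0.2, 1.7.0.3), with BDGP5 as build and no roles stated. For the calling threshold, duplicate reads and any pooling of replicates, the sources used here state no setting; such settings can join or split peaks and so change widths. The authors deposited 1 score per peak without a scale, used here only to describe and rank peaks, beside start and end positions.

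Width, gaps between edges or centres and nearest neighbours were computed. Intervals are exact 95% binomial or, for medians, order-statistic intervals over peaks; they cover counting only, and depth is unknown. No test was made, since the rule for members read the same list. Peaks named were the 10 widest and 10 strongest members, the widest per arm, 5 on each side of the minimum, the 5 weakest, the 5 most isolated, the longest runs and 3 of the fullest 1 Mb windows (the third, among ties, by its number of peaks). The members, windows and gene lists were chosen with earlier results of these data known.

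Locus windows were set by hand in steps of 10 kb from general knowledge of the release 5 map. A RefSeq gene table of release 6 was in view as a check: all genes named were in it, on the same arms and in the same order of loci. No coordinate was converted, and no sequence was used. Planned loci that were doubtful or not matched were left out. Gap and joining steps were tested on simulated peaks. Scripts ran under Python 3.11.15 with pandas 2.3.3, numpy 2.4.6, matplotlib 3.10.9 and scipy 1.17.1.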

Additional observations from a re-analysis of the deposited data

How the results depend on the processing

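Of 46 alternative values for 10 results, 13 stayed within the interval of the reported value and 33 did not: 12 under the other width minimums, 9 after joining, 8 above the median score and 4 between centres. With a minimum of 1500 bp, the wide share was 17.8% of arm peaks, 14.5% on X, 17.6% on chromosome 4 and 14.5% in the named loci, and median scores were 75.54 for wide and 22.99 for other peaks. With 3000 bp the shares were 2.14% of arm peaks, 1.44% on X, 0% on chromosome 4 and 1.09% in the loci, with median scores of 102.27 for wide and 27.80 for other peaks. Joining peaks less than 1 kb apart gave shares of 19.6% on the arms, 17.4% on X and 24.6% on chromosome 4, median scores of 72.13 and 30.48, and median gaps of 3744 and 4199 bp for wide and other peaks; by construction 0% then had a neighbour within 1 kb. Keeping peaks above the median score gave shares of 16.8% on the arms, 14.3% on X and 16.7% on chromosome 4, a median score of 51.71 for other peaks, median gaps of 4524 bp for wide and 5569 bp for other peaks, and neighbours within 1 kb for 16.8% of wide and 12.3% of other peaks. Between centres, median distances were 3398 bp for wide and 2655 bp for other peaks, and 0% of wide and 20.9% of other peaks had a centre within 1 kb. Wide peaks had the shorter median gap under these alternatives except between centres and at 1500 bp, where the share with a neighbour within 1 kb also turned (41.6% of wide and 42.1% of other peaks). X had a lower wide share than all arms together under both minimums, after joining and above the median score. Alternatives added after the data had been seen were the wider loci windows (8.20% wide), the loci under other minimums, and the list without the histone array. No paired analysis was possible because the list carries no values per library, and no replicate could be left out for the same reason.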
